A study of Mus musculus with 12 samples.

Results

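Testes of 129Sv mouse embryos that lack Dmrt1 were set against testes of B6 embryos that lack it, 3 arrays against 3, across all genes with a measurable level. A probe set, the group of short oligonucleotides that reads 1 transcript region on the array, was taken in when its intensity was at least 16 (a log2 value of 4) on at least 3 of the 12 arrays of the study. This held for 24852 of the 45101 probe sets, and 24820 were left for testing after 32 control probe sets were set aside. Of these, 21900 were assigned to 1 gene and covered 12727 of the 18194 genes named on the array, each represented by its probe set of highest mean. At the threshold, the array that decided read 16 for the last probe set taken in and 15.99 for the first left out.

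The study compared 4 groups of E15.5 testes (embryonic, counted in days after mating), each of 3 arrays, namely wild-type and Dmrt1 knockout testes of the 129Sv and the B6 strain. The groups compared here were the 129Sv Dmrt1 knockout and the B6 Dmrt1 knockout, and the wild-type testes of the same strains served as the background for strain differences that do not need the loss of Dmrt1. The design text of the study calls the removal of Dmrt1 conditional, while the labels of the samples call the genotype a knockout, and no Cre line or promoter is named in the sources used here. The labels do not say whether each array came from a separate animal, so p-values measure the spread between these arrays, which may be technical.

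Dmrt1 encodes a transcription factor with a DM domain, a zinc-binding fold that recognises DNA, and it is made in the germ cells and the Sertoli cells of the fetal testis. Male germ cells of this stage normally leave the cell cycle, switch off pluripotency genes and start a programme of their own that includes the piRNA pathway, which uses short RNAs to silence transposons and to guide new DNA methylation. Testicular teratomas, germ cell tumours that begin before birth in cells which keep the pluripotency programme, are known from 129 mice, and B6 mice are known to be resistant to them. The comparison asks in which genes the testes without Dmrt1 differ between these backgrounds.

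The promoters of 4 genes of the male germ cell programme that were higher in the 129Sv knockout are shown first, because they hold very unequal numbers of the CG dinucleotide, the site of DNA methylation, although the genes moved in the same direction. Dnmt3l encodes the cofactor of the enzymes that lay down new DNA methylation in male germ cells, Tdrd5 and Asz1 encode proteins of the germ granules in which piRNAs are made, and Gtsf1 encodes a partner of the PIWI proteins that bind piRNAs. Each sequence covers the 250 bases before the start site, read 5′ to 3′ on the strand of the gene from RefSeq promoters of GRCm38.p6, with every CG in capitals. The Dnmt3l window is chr10:78042037-78042286 on the plus strand, before the most upstream of 3 start sites in the table. The windows on the minus strand are chr1:156303349-156303598 for Tdrd5, chr6:18109062-18109311 for Asz1 and chr15:103430428-103430677 for Gtsf1.
Dnmt3l: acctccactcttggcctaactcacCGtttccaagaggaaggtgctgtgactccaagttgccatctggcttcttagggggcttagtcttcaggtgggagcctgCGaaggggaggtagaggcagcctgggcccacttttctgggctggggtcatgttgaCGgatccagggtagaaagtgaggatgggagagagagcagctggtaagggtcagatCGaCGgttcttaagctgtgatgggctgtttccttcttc
Tdrd5: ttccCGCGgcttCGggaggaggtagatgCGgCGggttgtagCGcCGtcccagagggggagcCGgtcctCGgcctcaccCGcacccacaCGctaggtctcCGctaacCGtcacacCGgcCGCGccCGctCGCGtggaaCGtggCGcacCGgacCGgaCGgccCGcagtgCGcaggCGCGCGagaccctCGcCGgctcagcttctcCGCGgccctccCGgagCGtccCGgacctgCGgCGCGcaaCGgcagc
Asz1: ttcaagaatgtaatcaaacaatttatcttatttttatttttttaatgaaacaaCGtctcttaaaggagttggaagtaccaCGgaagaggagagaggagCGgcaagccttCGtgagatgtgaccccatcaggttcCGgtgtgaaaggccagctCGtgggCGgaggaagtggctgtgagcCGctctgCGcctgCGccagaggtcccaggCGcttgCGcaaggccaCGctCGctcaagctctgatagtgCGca
Gtsf1: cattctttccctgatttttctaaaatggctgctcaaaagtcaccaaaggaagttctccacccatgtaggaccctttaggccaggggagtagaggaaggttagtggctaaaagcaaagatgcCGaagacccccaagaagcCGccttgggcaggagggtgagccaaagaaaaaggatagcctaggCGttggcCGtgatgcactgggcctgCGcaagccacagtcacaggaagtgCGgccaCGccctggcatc

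The Dnmt3l window held 5 CG dinucleotides, that of Gtsf1 7, that of Asz1 15 and that of Tdrd5 40. The median was 16 in the 10256 of 12727 tested genes whose promoter was in the table, 15 in the 1978 of the 2450 genes called higher in the 129Sv knockout, and 6 in 27025 promoters of the table, 1 per gene. The strand makes no difference to the count, because CG reads the same on both strands. The median was 8 (quartiles 4 and 14) in 147 of the 194 genes called at least 4-fold higher, but with a promoter for under 80% of that set the comparison is void.

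Dmrt1 itself was measured first, as the check of the labels. Its probe set read 173, 145 and 181 in the 129Sv knockout and 86.4, 64.0 and 72.9 in the B6 knockout, against 1180, 924 and 1010 in the 129Sv wild type and 795, 1090 and 1070 in the B6 wild type. All 6 knockout arrays lay far below all 6 wild-type arrays, and the remaining signal was higher in every 129Sv knockout array than in any of the B6 knockout. That remainder differed by 1.17 ± 0.17 (SE) on the log2 scale, or 2.25-fold, with a limma adjusted p of 0.000345, while the wild types differed by 0.087 with an adjusted p of 0.79. The difference between these strain differences was 1.08 ± 0.24 and did not pass the test (adjusted p = 0.0874). The files do not say which part of the transcript the probe set reads relative to the deleted part.

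One array of the B6 knockout, replicate 3, stood apart from the others. Its log2 values correlated with the other B6 knockout arrays at 0.965 and 0.968, where those correlated with each other at 0.993 and the 129Sv knockout arrays at 0.988 to 0.989. Degraded RNA loses its 5′ end on such arrays, and signal at the 3′ end of Actb was 6.30 times that at its 5′ end on this array, 5.24 times on replicate 1 of the 129Sv knockout and 2.59 to 2.79 times on the other 4 knockout arrays. Counts of listed genes called are therefore also given without B6 knockout replicate 3 where that moved them. The last number in the sample titles runs from 9 to 11 in the 129Sv knockout and from 1 to 3 in the B6 knockout, and another number in the titles is 7 in the former and 10 in the latter, so whatever these numbers stand for cannot be told apart from strain. That other number is 11, 7 and 11 in the 129Sv wild types and missing for B6 wild type replicate 3. Within 129Sv it thus also differs between genotypes, which limits the wild types as a background.

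The 2 knockouts differed in many genes: 4062 of 12727 genes (31.9%) passed the limma test at an adjusted p of 0.05, and 2450 (19.3%) were higher and 1612 (12.7%) lower in 129Sv. The split moved with the scaling, to 2748 higher and 1173 lower with median centring and 2274 and 1813 with quantile normalization. Counted by probe set, 7439 of 24820 (30.0%) passed. Most differences were small, with a median of 1.68-fold among the genes called, and 1321 genes (10.4%) were called and at least 2-fold apart. The larger differences ran mostly towards 129Sv, with 194 genes at least 4-fold higher and 55 at least 4-fold lower. The arrays of the 2 knockouts did not overlap for 43.8% of all genes, called or not. Without B6 knockout replicate 3, 3746 genes were called, of which 3280 were among the 4062.

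Part of this difference was already present in the wild types, which share no array with the knockouts. Both comparisons used the same fitted variance of each probe set, however, so their calls were not independent and the overlaps below are descriptive. Between wild types, 1852 genes (14.6%) were called, 1250 of them (9.82%) higher and 602 (4.73%) lower in 129Sv. That count was 880 without replicate 2 and 1033 without replicate 3 of the 129Sv wild type, and 958 without replicate 1 and 1221 without replicate 2 of the B6 wild type. Of the genes higher in the 129Sv knockout, 900 were also higher in the 129Sv wild type, which is 36.7% of the knockout calls and 72.0% of the wild-type calls. Of those lower, 411 were shared, or 25.5% and 68.3%. Among genes called in knockouts and at least 2-fold apart, 52.3% of the higher and 53.2% of the lower ones were also called in the wild types. Across the 12727 genes the strain differences in knockouts and in wild types correlated with a Pearson r of 0.711 and a Spearman rho of 0.632, as a description, since genes are not independent and both sets of arrays carry the same strains' sequences.

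**Figure D1:**
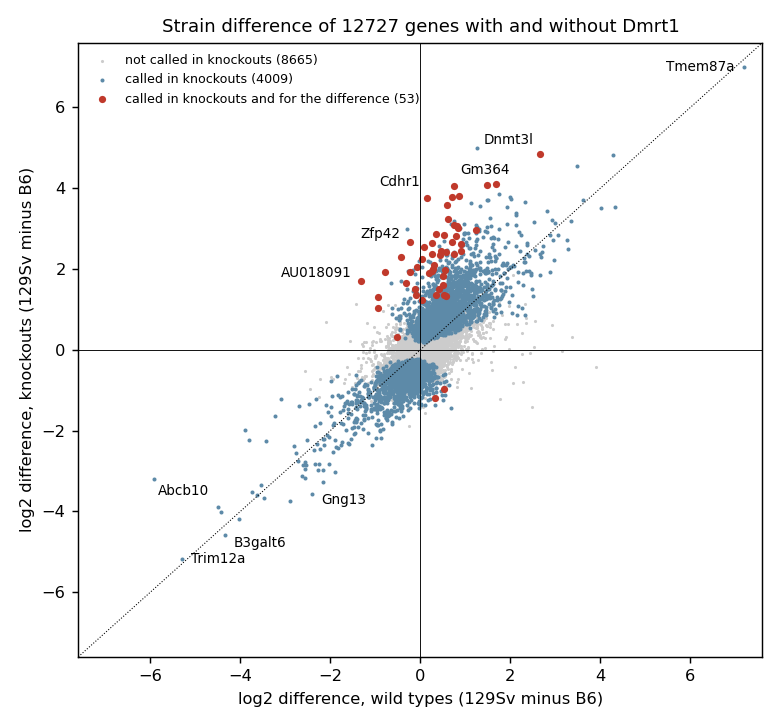
Each point is 1 of 12727 genes, with the log2 difference 129Sv minus B6 between wild types on the x axis and between Dmrt1 knockouts on the y axis; blue points were called in knockouts and red points also for the difference between the 2 strain differences. The differences correlated with a Pearson r of 0.711, which does not measure closeness to the dotted line of equal differences. Of the 53 red points 51 lie above that line, while those of Zfyve27 and Kcp lie below.

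The genes with the largest differences included genes called between the wild types as well and genes of germ cells and early embryos, and these kinds overlapped. Of the 12 genes with the largest rise, all but Dnmt3l and Sox3 were also called higher between wild types. Tmem87a, which encodes a membrane protein of the Golgi, read 1640, 1650 and 1780 in the 129Sv knockout and 11.4, 10.9 and 18.4 in the B6 knockout. The groups were far apart, and the same gap stood in the wild types, where it was at least 96.3-fold against at least 105-fold in knockouts, the fold being set against an intensity of 16 where a group mean lies below it. Cyp2c55, a cytochrome P450 enzyme, was at least 7.48-fold higher in the 129Sv knockout and 19.3-fold higher in the 129Sv wild type. Replicate 3 of the 129Sv knockout read 281 against 88.1 and 69.2, and without that array the fitted difference was 4.20 in place of 4.81. Gbp2b, an interferon-inducible GTPase, was at least 3.92-fold higher in the 129Sv knockout and at least 1.74-fold higher in the wild type.

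The 12 genes with the largest falls in 129Sv were all called lower in the wild types too, and the limma test of the difference between the strain differences gave adjusted p from 0.233 to 0.992 for the 12, which does not show that the differences were equal. Trim12a, a member of the TRIM family of antiviral proteins, read 3.94, 4.12 and 3.96 in the 129Sv knockout and 166, 164 and 112 in the B6 knockout. Every 129Sv array, knockout or wild type, stayed below the intensity of 16, and the fold was at least 9.07 in knockouts and at least 9.59 in wild types. B3galt6, a galactosyltransferase that builds the linker of proteoglycans, was 24.0-fold lower in the 129Sv knockout (log2 -4.58 ± 0.16, adjusted p = 1.46e-09), and 20.4-fold lower in the wild type. Mro, a gene named for its male-specific expression in the reproductive tract, was 18.1-fold lower, with 39.7, 35.7 and 32.6 against 524, 538 and 971. The groups of Mro did not overlap, and the wild-type fold was 16.3.

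The other genes with large falls were the mitochondrial transporter Abcb10 (15-fold), the long noncoding RNA Dubr (13.4-fold), the G protein subunit Gng13 (11.9-fold), the growth factor Pdgfd (10.2-fold) and the neuropeptide Nts (9.73-fold). Between wild types the folds were 22.6 for Abcb10 and 11.7 for Pdgfd, and smaller than in knockouts for Dubr (7.45), Gng13 (5.3) and Nts (4.48). Galc, a lysosomal enzyme, was at least 6.33-fold lower, Ang, a secreted ribonuclease, at least 6.12-fold, and Mocs1, an enzyme of molybdenum cofactor synthesis, at least 3.47-fold. 2610507I01Rik was at least 8.06-fold lower, with a fitted difference of -3.61 that became -4.41 without replicate 2 of the 129Sv knockout, which read 32.2 where the other arrays of that group read 5.65 and 6.54. A second probe set of Gng13 did not follow the first, at 0.12 (adjusted p = 0.67), whereas the other probe sets of B3galt6, Galc, Abcb10, Pdgfd and Ang were also called lower, at -2.05, -0.60, -1.36, -1.37, and -3.10 and -1.48 on the log2 scale.

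**Figure D2:**
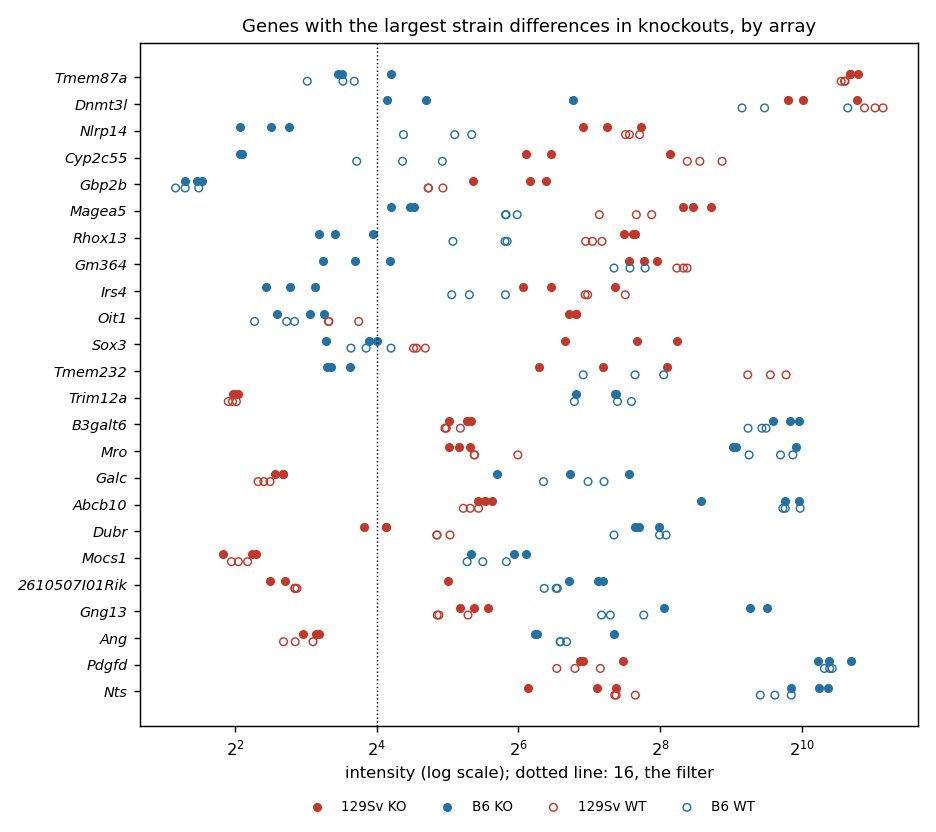
Intensity on each array, on a log scale, of the 12 genes with the largest rise and the 12 with the largest fall in the 129Sv knockout against the B6 knockout; filled points are knockouts, open points wild types, red 129Sv, blue B6. In the lower 12 genes the open points show a gap in the same direction as the filled ones, smaller for Dubr, Gng13 and Nts, while in Dnmt3l, Gm364 and Tmem232, for example, the B6 knockout arrays lie well below the B6 wild-type arrays.

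In the higher direction, Dnmt3l led the genes of germ cells. It read 1030, 899 and 1760 in the 129Sv knockout, 17.7, 25.9 and 110 in the B6 knockout, 1890, 2270 and 2100 in the 129Sv wild type and 571, 711 and 1600 in the B6 wild type. The B6 knockout arrays were the low ones, at a level that no array of another group came near. The difference between knockouts was 31.9-fold (log2 5.00 ± 0.54, adjusted p = 3.12e-05), against 2.40-fold between wild types (adjusted p = 0.148), and the difference between these was 3.73 ± 0.77 with an adjusted p of 0.0638. Without B6 knockout replicate 3, which read 110, the difference between knockouts was 5.78.

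Several of the other leading genes are X-linked. Magea5, a cancer-testis antigen of the X chromosome, read 420, 354 and 319 in the 129Sv knockout and 18.5, 23 and 22.3 in the B6 knockout, and the groups did not overlap. It was 17.1-fold higher in 129Sv among knockouts and 3.22-fold higher among wild types, and the difference between these passed the test (2.41 ± 0.29, adjusted p = 0.00286). Rhox13, a homeobox gene of the X-linked reproductive cluster, was at least 12.0-fold higher and Gm364, also on X, at least 13.6-fold. Between wild types Rhox13 was 2.79-fold and Gm364 1.68-fold higher in 129Sv, both called. Sox3, an X-linked relative of Sox2, read 302, 204 and 101 in the 129Sv knockout, against 14.8, 16.1 and 9.80 in the B6 knockout. The wild types of both strains were as low as the B6 knockout or little above it, at 12.4 to 25.8, so that only the 129Sv knockout stood high among the 4 groups.

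Nlrp14, a gene of the NLR family known from oocytes and testis, was at least 9.82-fold higher in the 129Sv knockout. Irs4, an adaptor of insulin receptor signalling, was at least 6.21-fold higher, Tmem232 at least 9.18-fold and Oit1 at least 6.88-fold. Between wild types Nlrp14 was 6.3-fold, Tmem232 3.96-fold and Irs4 3.36-fold higher in 129Sv, all called. Oit1 was also called there, with both means below 16. The limma test of the difference between strain differences did not pass for Irs4 (adjusted p = 0.0777) or Tmem232 (adjusted p = 0.188). On the X chromosome as a whole, 104 of 449 genes (23.2%) were called higher and 52 (11.6%) lower, where single autosomes had 14.2% to 22.6% higher. At 4-fold or more, 22 X-linked genes were higher and 0 lower, while single autosomes had 2 to 17 higher and 1 to 6 lower. Xist, the RNA that coats the inactive X chromosome of females, stayed below an intensity of 16 in every probe set on all 12 arrays.

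Genes of the male germ cell programme and the piRNA pathway were higher in the 129Sv knockout almost as a block. Of 16 members tested all had a positive difference and 15 were called higher, where 19.3% of all genes were called higher, and the median difference was 1.62 on the log2 scale against 0.028 over all genes. The counts of listed genes describe lists that were chosen with results of these data known. Between wild types 4 of the 16 were called higher, against 9.82% of all genes, with a median of 0.57. Without B6 knockout replicate 3 the count was also 15, with a median of 1.48. The remaining member, Henmt1, which methylates the ends of piRNAs, lay below an intensity of 16 in the mean of both knockouts.

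Morc1, a protein needed for transposon silencing in male germ cells, read 1400, 1500 and 2070 in the 129Sv knockout and 173, 197 and 263 in the B6 knockout, a 7.85-fold difference with no overlap (adjusted p = 5.99e-07). The PIWI proteins, which carry piRNAs, were higher in the 129Sv knockout by 4.17-fold for Piwil4, at least 2.76-fold for Piwil1 and 2.20-fold for Piwil2. Among the Tudor-domain proteins of the germ granule, Tdrd9 was 7.49-fold higher, Tdrd5 3.94-fold, Tdrkh 3.47-fold, Tdrd12 3.00-fold and Tdrd7 2.32-fold. Tdrkh read 118, 80.1 and 27.4 in the B6 knockout, and without replicate 3 of that group its log2 difference was 1.19 in place of 1.80. Asz1 read 2550, 2970 and 3060 against 1050, 990 and 783, Mov10l1, the helicase that feeds piRNA precursors, was 3.03-fold higher, and Pld6, the mitochondrial endonuclease of the pathway, 2.04-fold. The strain difference was larger among knockouts than among wild types, by the test of that difference, for Morc1 (1.74, adjusted p = 0.0185), Tdrd5 (1.44, adjusted p = 0.0246) and Asz1 (1.10, adjusted p = 0.0160).

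General germ cell genes followed the same direction, with 13 of 15 called higher (12 without B6 knockout replicate 3), against 19.3% of all genes, and Kit lower. Sohlh1, a transcription factor of spermatogonia, was at least 3.87-fold higher, with 42.4, 34.0 and 164 against 6.90, 6.81 and 10.2, and its fitted difference of 2.98 became 2.28 without replicate 3 of the 129Sv knockout. Gtsf1 read 1910, 3490 and 3070 against 323, 302 and 532, a 7.33-fold difference, and the B6 wild type stood at a mean of 2300 against 2930 in 129Sv. The B6 knockout was therefore the group that stood apart for Gtsf1, and the difference between strain differences passed the test (2.54, adjusted p = 0.00451). Ddx4 and Dazl, RNA-binding proteins that define germ cells, were 1.86-fold and 1.79-fold higher. Dnd1, the RNA-binding protein whose loss causes teratomas in 129 mice, read 867, 642 and 1000 against 172, 188 and 304, which is 3.84-fold with no overlap (adjusted p = 0.000134). Of the 6 teratoma modifiers tested it was the 1 that was called.

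Kit, the receptor that germ cells carry for stem cell factor, read 54.1, 77.5 and 44.4 in the 129Sv knockout and 129, 102 and 107 in the B6 knockout, and the wild types differed in the same direction (-1.16, against -0.98 between knockouts). The mean log2 level of the 15 germ cell genes was 9.20, 9.30 and 9.57 on the 129Sv knockout arrays and 8.06, 7.90 and 7.62 on those of the B6 knockout, with 9.17 to 9.25 in the 129Sv and 8.60 to 8.92 in the B6 wild type. Germ cell markers were thus lowest in the B6 knockout, and on arrays of whole testes fewer germ cells and less RNA per germ cell cannot be told apart.

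Genes of meiosis, the division that male germ cells enter only after birth, were also higher, with 13 of 18 called, against 19.3% of all genes, and 17 of 18 positive (median 1.39). Syce3 and Sycp3, parts of the complex that pairs chromosomes, were 6.92-fold and 3.96-fold higher, and Tex15, a protein of meiotic repair and transposon silencing, 3.49-fold. Tex11, an X-linked meiotic gene, read 519, 481 and 476 against 135, 130 and 14.6, and its 7.73-fold difference (log2 2.95) rested in part on the last array, without which it was 1.89. Stra8, which starts meiosis in response to retinoic acid, was not called (0.19 ± 0.32), nor were Rec8, Spo11, Dmc1 and Syce2. Between wild types 7 of the 18 were called higher and 2 lower, where 9.82% and 4.73% of all genes were.

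**Figure D3:**
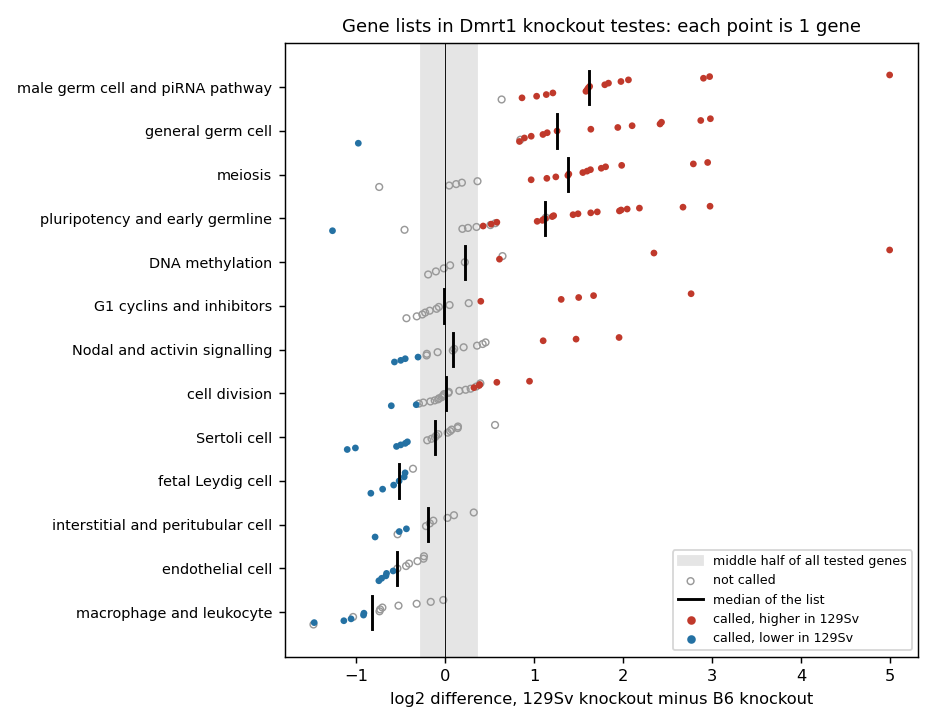
Each point is 1 gene of a list, placed by its log2 difference between the 129Sv and the B6 knockout; filled points passed the test, the black bar is the median of the list and the grey band holds the middle part of all tested genes from the lower to the upper quartile. The medians of the germ cell lists (1.62 and 1.26) and of the pluripotency list (1.13) lie to the right of 0, and those of the macrophage (-0.82), endothelial (-0.54) and Leydig cell (-0.52) lists to the left.

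Pluripotency and early germline genes were higher in the 129Sv knockout in 19 of 27 members tested, where 19.3% of all genes were called higher, and 1, Nr0b1, was lower (median difference 1.13). Between wild types 3 were called higher and 2 lower (9.82% and 4.73% of all genes), with a median of -0.032. Eras, an ES cell form of Ras, read 520, 389 and 333 in the 129Sv knockout and 64.7, 101 and 21.2 in the B6 knockout, a 7.88-fold difference with no overlap, and its log2 difference of 2.98 became 2.34 without B6 knockout replicate 3. Zfp42, known as Rex1, read 945, 1110 and 770 against 235, 164 and 80.2, or 6.38-fold. The wild-type means lay between, at 244 in 129Sv and 290 in B6, and for Zfp42 the strain difference was larger among knockouts than among wild types (2.91 ± 0.43, adjusted p = 0.0103). Fbxo15, a target of Pou5f1 and Sox2, read 1770, 1860 and 2260 against 534, 496 and 478, and passed the same test (1.69, adjusted p = 0.00845).

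The core factors of the pluripotency network differed by smaller folds. Sox2 read 2030, 2200 and 1960 in the 129Sv knockout and 1020, 855 and 451 in the B6 knockout, which is 2.82-fold. Nanog was 2.05-fold higher, with 1420, 1810 and 1410 against 962, 767 and 573, and Pou5f1 was 2.13-fold higher, with 1370, 1250 and 1290 against 739, 731 and 421. None of these 3 overlapped between the groups, as held for 43.8% of all genes, and B6 knockout replicate 3 was the lowest array for each. Both knockouts stood above both wild types for Sox2 and Nanog, whose wild-type means were 294 and 355 for Sox2 and 151 and 236 for Nanog, in 129Sv and B6 in that order. The difference between strain differences did not pass for Sox2 (adjusted p = 0.0631) or Nanog (adjusted p = 0.0533).

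Otx2, a factor of the primed epiblast, was 4.54-fold higher, Gdf3, a ligand of the TGF-beta family, 3.94-fold, Lin28a, which blocks let-7 microRNAs, 3.27-fold and Utf1 3.11-fold. Trim71 was called at 2.05, with 344, 1070 and 822 against 370, 250 and 46.6, but its groups overlapped and without B6 knockout replicate 3 it was 1.15 with an adjusted p of 0.0956. The call was also lost without replicate 2 (1.71, adjusted p = 0.114) or 3 (1.90, adjusted p = 0.0987) of the 129Sv knockout, and without replicate 1 of the B6 knockout the value was 2.64. Dppa5a, Dppa2, Klf5, Klf2, L1td1, Tbx3 and Prdm14 did not pass the test. Nr0b1, an orphan nuclear receptor of stem cells that somatic cells of the gonad also make, read 250, 175 and 215 against 467, 492 and 568, and was lower in the 129Sv wild type too (log2 differences of -1.27 between knockouts and -0.92 between wild types). Without B6 knockout replicate 3, 17 of the 27 genes were called higher and the median was 0.84.

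**Figure D4:**
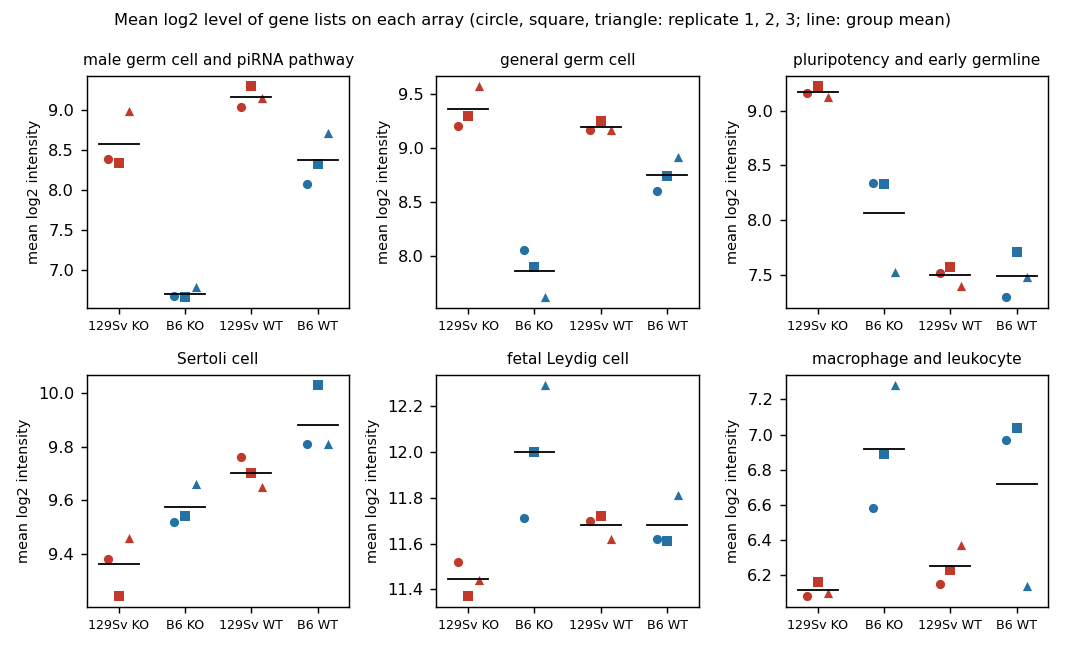
Mean log2 intensity of the genes of 6 lists on each array, with circle, square and triangle for replicates 1, 2 and 3 and a line for the group mean; red is 129Sv and blue B6. The B6 knockout is the low group for the male germ cell and general germ cell lists, the 129Sv knockout is the high group for pluripotency (9.12 to 9.22), and replicate 3 of the B6 knockout is its lowest array for pluripotency (7.53) and its highest for the Leydig cell (12.29) and macrophage (7.28) lists.

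Among enzymes that set DNA methylation, some differed and others were not called. Dnmt3b, a de novo methyltransferase of the early embryo, read 3820, 4220 and 3430 in the 129Sv knockout, 831, 811 and 622 in the B6 knockout, and means of 1010 and 747 in the 129Sv and B6 wild types. The 129Sv knockout was the group that stood apart, in contrast to Dnmt3l, and Dnmt3b passed the test of the difference between strain differences (1.91 ± 0.18, adjusted p = 0.00066). The maintenance enzyme Dnmt1 and its partner Uhrf1 were not called, at 0.057 and -0.014, nor were the Tet enzymes, which remove methylation. Of the 9 genes tested 3 were called higher, where 19.3% of all genes were called higher. Dnmt3a, a second de novo methyltransferase, was 1.53-fold higher. Its call in the limma test was lost without replicate 1 or 3 of the 129Sv knockout (adjusted p = 0.0598 and 0.106). It was also lost without replicate 1 or 2 of the B6 knockout (0.0560 and 0.0613).

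Signalling genes of the fetal germ cell were called in both directions, where 19.3% of all genes were called higher and 12.7% lower. In Nodal and activin signalling, 3 of 16 genes were higher, a share near that background, and 4 lower. The counts were 4 and 3 without B6 knockout replicate 3, and 2 were lower without replicate 2 of the 129Sv knockout. The ligand Nodal read 112, 139 and 151 against 59.6, 65.8 and 60.5, or 2.15-fold, its coreceptor Tdgf1 was 3.88-fold higher and Eomes, a target of the pathway, 2.77-fold. The lower ones included the inhibin subunits Inha (1.36-fold) and Inhbb (1.41-fold), which Sertoli cells make. The antagonist Lefty1 was not called, at -0.084 ± 0.33.

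In retinoic acid signalling, 4 of 14 genes were higher and 5 lower, and without B6 knockout replicate 3 the counts were 2 and 3 (2 lower without replicate 3 of the 129Sv knockout). Crabp2, which carries retinoic acid to its nuclear receptors, read 2180, 1830 and 2520 against 435, 515 and 808, with wild-type means of 293 and 339. Its 3.81-fold difference was larger than that between wild types by the test of the difference (2.15 ± 0.35, adjusted p = 0.0184). Stra6, the membrane receptor that takes up retinol, moved the other way, with 86.0, 122 and 73.9 against 284, 270 and 500, or 3.66-fold lower. The receptor Rarg was 1.71-fold higher, and Rara and Rarb were not called. In GDNF signalling, which keeps spermatogonial stem cells, Pou3f1, a POU factor downstream of GDNF, read 390, 411 and 345 against 50.8, 43.2 and 42.5. It was 8.40-fold higher and passed the test of the difference (2.26, adjusted p = 0.00845), while the GDNF receptor Gfra1 was at least 2.06-fold lower and Gdnf itself was not called. Of the 11 genes of this list 4 were higher and 1 lower (3 to 4 and 1 to 2 with single knockout arrays left out). Ret and Etv5 were also called higher. Etv5, at 0.90, lost the call without B6 knockout replicate 3 (0.56, adjusted p = 0.0502), and Ret ranged from 0.031 to 1.69 over the alternative settings.

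Among 14 regulators of the G1 phase, 5 were called higher, 4 without B6 knockout replicate 3, against 19.3% of all genes, and they included 3 inhibitors. The INK4 inhibitors Cdkn2b and Cdkn2a were 6.80-fold and 3.18-fold higher, with Cdkn2b at 124, 125 and 143 against 24.9, 21.2 and 13.3. The inhibitor Cdkn1a was 2.83-fold higher and Rb1, the retinoblastoma protein, 2.47-fold. Cdkn2b, Cdkn2a and Rb1 were also higher in the 129Sv wild type, at 1.56, 0.92 and 1.18 on the log2 scale. The G1 cyclins Ccnd1, Ccnd2, Ccnd3, Ccne1 and Ccne2 were not called in knockouts. Of 24 genes of cell division, 5 were higher (4 without B6 knockout replicate 3) and 2 lower, shares near the 19.3% and 12.7% of all genes, with a median of 0.013 whose sign changed with the scaling: Bub1, a kinase of the spindle checkpoint, was 1.93-fold higher, whereas Mki67, a marker of cycling cells, read 2700, 2000 and 2070 against 3080, 3830 and 3320 and was 1.52-fold lower. In the p53 and BCL2 families, the proapoptotic Bcl2l11 was 1.94-fold lower and the antiapoptotic Bcl2 1.56-fold lower, and the other 7 were not called.

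Genes of Sertoli, Leydig and endothelial cells and of macrophages were lower in the 129Sv knockout where they were called, against a background of 12.7% of all genes called lower. Of 17 Sertoli cell genes 6 were lower, but the median was -0.11 and Sox9 and Wt1, the factors that define the cell, were not called (-0.11 ± 0.17 and 0.074 ± 0.095). Hsd17b1, a steroid enzyme of fetal Sertoli cells, read 300, 224 and 319 against 409, 543 and 953, or 2.14-fold lower. Of 7 fetal Leydig cell genes 6 were lower (median -0.52), and 4 without B6 knockout replicate 3 (median -0.33) or without replicate 3 of the 129Sv knockout. Cyp17a1, the enzyme that leads to androgens, read 4550, 3320 and 3890 against 5730, 6920 and 8420, or 1.78-fold lower, and Cyp11a1, which starts steroid synthesis, was 1.43-fold lower. The wild types of the 2 strains lay closer, at -0.11 for Cyp17a1, and for neither gene did the difference between strain differences pass the test.

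Genes of blood vessels and blood cells went the same way. Of 11 endothelial genes 5 were lower, led by the angiopoietin receptor Tek at 1.67-fold with an adjusted p of 0.00162, and the count was 4 without B6 knockout replicate 3 and 1 without replicate 2 of the 129Sv knockout. Of 14 macrophage and leukocyte genes 5 were lower (median -0.82), a count that was 3 without B6 knockout replicate 3 and 1 without replicate 1 of the 129Sv knockout. Lyz2, the lysozyme of macrophages, read 294, 338 and 340 against 571, 952 and 1320, or 2.77-fold lower. The summed intensity of the 14 genes was 1949 to 2493 in the 129Sv knockout and 3726 to 5818 in the B6 knockout, against 2140 to 2976 and 2438 to 5014 in the wild types. Summed Leydig cell intensity was 20120 to 22300 against 26030 to 37520, and summed germ cell intensity 20530 to 27300 against 7849 to 13020. Germ cell genes and genes of Leydig cells and macrophages thus lay in opposite directions between these arrays, and the part of cell composition in either was not tested. Markers of neurons and skeletal muscle, which should be scarce in testis, had 3 of 7 higher and 2 lower (1 lower without B6 knockout replicate 3). Among all genes 19.3% were called higher and 12.7% lower.

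Genes that mark the ovarian somatic lineage, which Dmrt1 holds down in Sertoli cells, did not move together, with 3 of 7 higher and 1 lower (19.3% and 12.7% of all genes). Lef1, a nuclear effector of Wnt signalling, read 2980, 2990 and 2870 against 1430, 1260 and 1070, and was the 1 of the 7 that passed the test of the difference (1.21, adjusted p = 0.00845). Rspo1, an activator of Wnt signalling, was 2.05-fold higher, while the ligand Wnt4 was 1.89-fold lower, and the granulosa cell factor Foxl2 was not among the genes tested. Of the markers of the adjacent mesonephros, 1 of 5 was called, and was lower. Of 3 Y-linked genes 2 were higher, Uty at 2.13-fold and Eif2s3y at 1.58-fold, the latter a call that was lost without replicate 2 or 3 of the 129Sv knockout (adjusted p = 0.0680 and 0.0525).

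The number of genes whose strain difference itself changed with the loss of Dmrt1 depended on the setting. The difference between the strain differences passed the limma test for 55 genes (0.432%), 51 of them (0.401%) in the direction of a higher 129Sv knockout and 4 (0.0314%) in the opposite direction. All 51 were also called higher in the 129Sv knockout. In 16 the 129Sv knockout mean lay above both wild-type means while the B6 knockout did not lie below both, in 11 the B6 knockout lay below both while the 129Sv knockout did not lie above both, and in 24 both held. These classes go by the order of the means, without a margin. In some of the 24 the 129Sv knockout mean was close to that of the 129Sv wild type, as for Tdrd5 (699 and 682) and Cfap300 (2270 in both). In others it was well above, as for Sox3 (202 and 24.1). Leaving out 1 array moved the number between 23, without replicate 1 of the 129Sv wild type, and 96, without replicate 1 of the B6 knockout, and it was 84 without B6 knockout replicate 3. Leaving out replicate 2 or 3 of the 129Sv wild type gave 37 and 25, replicate 2 or 3 of the 129Sv knockout 30 and 38, replicate 2 of the B6 knockout 33 and replicate 2 or 3 of the B6 wild type 28 and 29. With array weights 842 genes passed, 525 higher and 317 lower, with 1 probe set per gene in the fit 167 (142 and 25), and with values floored at log2 4 123 (89 and 34), so that both the number and its one-sided split changed.

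Cdhr1, a cadherin known from photoreceptors, showed the largest such difference, with 320, 244 and 217 in the 129Sv knockout, 21.3, 20.3 and 16.2 in the B6 knockout and 7.39 to 15.4 in the 6 wild-type arrays. Only the 129Sv knockout stood well above the threshold of 16, 13.4-fold over the B6 knockout, and the difference between strain differences was 3.61 ± 0.38 (adjusted p = 0.00114). Zic5, a zinc finger gene of early neural tissue, followed the same pattern at least 3.96-fold higher, and its other probe set gave 3.25 against 3.59 on the log2 scale. Gm364 took the other form: 190, 218 and 248 in the 129Sv knockout stood beside 163 to 333 in the 6 wild-type arrays, and the B6 knockout was alone at 9.49, 13.0 and 18.2. Gtsf1l, a relative of Gtsf1, was 4.92-fold higher in the 129Sv knockout, with wild types between the knockouts. AU018091 turned its direction, at least 2.95-fold higher in the 129Sv knockout and 2.51-fold lower in the 129Sv wild type (adjusted p = 0.00287).

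The genes with the 129Sv knockout above both wild types included the thyrotropin-releasing hormone gene Trh (5.82-fold over the B6 knockout), the scaffold protein gene Pdzk1 (5.32-fold), the carbonyl reductase Cbr3 (4.14-fold) and the transcriptional corepressor Skor1 (2.85-fold). Those with the B6 knockout below both wild types included the kinase Ripk4 (8.13-fold), the X-linked RNA export factor Nxf3 (7.17-fold), the forkhead factor Foxq1 (4.31-fold) and the circadian factor Arntl2 (2.06-fold). Where both held, the germ cell genes Taf7l (5.4-fold), an X-linked relative of a basal transcription factor, and D1Pas1 (6.36-fold), an autosomal copy of a DEAD-box helicase, stood beside Tdrd5 and Asz1. Of the 51 genes 9 were X-linked, as were 449 of the 12727 tested, and 20 were called between wild types, 16 of them higher and 4 (Pzp, Slc16a1, AU018091 and Arntl2) lower in 129Sv.

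In the opposite direction, Zfyve27, a protein of neurite outgrowth, was 2.28-fold lower in the 129Sv knockout (-1.19), and not called in wild types (0.32). Its other 2 probe sets gave 0.42, which did not pass, and -0.96. Kcp, a secreted regulator of BMP signalling, was 1.95-fold lower, with 272, 210 and 227 against 400, 546 and 440. For both, the test of the difference was lost when any of several single arrays was left out, with adjusted p from 0.0675 to 0.127 for Zfyve27 and 0.0547 to 0.0904 for Kcp in those cases. Sox3 lost the same test without replicate 2 of the 129Sv knockout (3.02, adjusted p = 0.0518) and without replicate 1 of the 129Sv wild type (3.08, adjusted p = 0.0526).

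The Dmrt1 locus on chromosome 19 was examined because both knockouts carry the targeted allele there. Of the 25 tested genes on each side of Dmrt1 in RefSeq order, 50 in all, 12 were called higher and 5 lower in the 129Sv knockout, or 34.0% against 31.9% of all genes. Between wild types 3 were higher and 3 lower, or 12.0% against 14.6%. Both shares stood near the background. The largest difference was that of Gldc, the glycine decarboxylase, at 6.79-fold higher in the 129Sv knockout (log2 2.76 ± 0.28) and 2.10-fold in the wild type. Cd274, the checkpoint ligand PD-L1, was 3.22-fold higher, Mbl2, a lectin of innate immunity, 3.07-fold, and Mlana at least 3.02-fold. Vldlr, a lipoprotein receptor, was 2.08-fold lower and Aldh1a7 1.92-fold lower.

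A probe that spans a base that differs between 129Sv and B6 can lose signal in 1 strain whatever the amount of RNA, so the other probe sets of the same gene were read as well. For 1702 genes whose representative was called in knockouts there were 2726 other probe sets, of which 76.6% had the same sign, 1023 (37.5%) were called in the same direction and 143 (5.25%) in the opposite one. The agreement rose with the size of the difference: among genes at least 4-fold apart 94.4% of the other probe sets had the same sign and 84.5% were called in the same direction, against 74.1% and 30.5% for genes under 2-fold. For the 7146 genes with 1 member probe set, Dmrt1, Dnmt3l, Tmem87a and Trim12a among them, no such comparison could be made.

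Of 2243 genes with at least 3 member probe sets, 118 had called probe sets in opposite directions. Snx5, a sorting nexin of endosomes, was 1.59-fold and 1.49-fold higher in called probe sets and at least 16.8-fold lower in another, the intensity of 16 again standing in for means below it. Adi1, an enzyme of methionine salvage, was 1.65-fold higher in 1 probe set and 5.99-fold and at least 12.7-fold lower in the others. Imp4, a ribosome assembly factor, was 3.34-fold and 1.63-fold higher against at least 1.27-fold lower. Pde5a, a phosphodiesterase, was 1.64-fold higher and 9.56-fold lower, and the splicing factor Rbm39 ranged from 7.6-fold higher to at least 4.35-fold lower over 12 probe sets. In each of these 5 genes the lowest probe set was lower between wild types too, by at least 17.6-fold for Snx5, at least 12.3-fold for Adi1, at least 1.96-fold for Imp4, 5.44-fold for Pde5a and at least 4.91-fold for Rbm39. For Paip1 the large differences ran the other way, with probe sets 18-fold and 12.4-fold higher and its representative 1.4-fold lower in the 129Sv knockout. Between wild types these were 17.2-fold and 14.5-fold higher and 1.48-fold lower. The part of strain sequence in all these values was not tested.

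**Figure D5:**
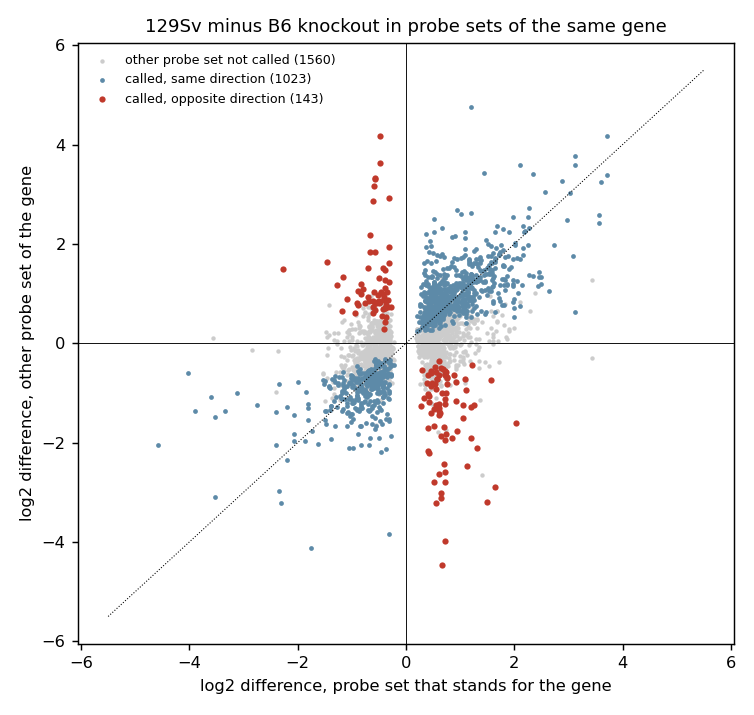
For genes with several probe sets, the log2 difference 129Sv minus B6 knockout of the probe set that stands for the gene is on the x axis and that of each other probe set on the y axis; blue points were called in the same direction (1023), red points in the opposite one (143) and grey points were not called (1560). Of the 143 red points, 123 belong to genes whose representative differed by less than 2-fold.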

How the data were processed

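Total RNA of whole testes was measured on 12 Affymetrix mouse arrays. The deposited values are linear intensities that the authors made with GCRMA, per the submitters' processing notes, which give no version. Their log2 was taken here, and probe sets with log2 of at least 4 on at least 3 arrays were kept. The labels give embryonic day 15.5, whereas the growth protocol names another age. limma 3.58.1 in R 4.3.3 fitted the 4 group means over 12 arrays, with a variance trend and Benjamini-Hochberg adjustment over 24820 probe sets at 0.05. The test was checked on simulated data in which 200 of 24820 probe sets were changed. It found 94% of probe sets changed by a log2 of 2, 52% of those changed by 1 and 10% of those changed by 0.5. Of its calls 7.91% were false, above the 0.05 that was set. In the data 30.0% of probe sets were called, so the shares found there may differ from the simulated ones. Each gene is represented by its probe set of highest mean. A group mean under 16 was set to 16 for a fold, which is then given as "at least", and both under it gave none. The number of arrays limits precision.

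Named genes were the 12 with the largest called log2 difference in each direction, if the higher group averaged 5 or more on the log2 scale and the arrays of both groups did not overlap, up to 8 in each direction with a called difference of the strain differences, the called neighbours of Dmrt1, 6 genes with probe sets called in opposite directions, and members of 27 gene lists. Members and lists were chosen with earlier results of these data known. Array numbers are shared between groups but did not pair the strains. Deviations of same-numbered 129Sv and B6 knockout arrays correlated at -0.269, 0.137 and 0.0432. The sample titles share a number between the wild-type and the knockout array of B6 replicate 1, and likewise of B6 replicate 2. Its meaning is not given, and pairing of wild type with knockout within a strain was not tested. Alternatives were other scalings, filters, floors, array weights, a replicate block, a covariate for the Actb ratio and each array left out.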

Additional observations from a re-analysis of the deposited data

Results flagged for a closer look

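For 23 named or listed genes, among the 55 that passed, the strain difference in knockouts differed from that in wild types by the limma test of the difference itself. The values are log2 differences of the strain differences. They were highest for Cdhr1 (3.61), Gm364 (3.31), Sox3 (3.10), AU018091 (3.02), Zic5 (2.99), Oit1 (2.97), Zfp42 (2.91) and Gtsf1l (2.73). Among X-linked and NLR family genes they were 2.58 for Rhox13, 2.41 for Magea5 and 2.19 for Nlrp14. Germ cell genes followed with 2.54 for Gtsf1, 1.74 for Morc1, 1.53 for Taf7l, 1.44 for Tdrd5 and 1.10 for Asz1. Of the remaining genes Pou3f1 stood at 2.26, Crabp2 at 2.15, Dnmt3b at 1.91, Fbxo15 at 1.69 and Lef1 at 1.21. Zfyve27 at -1.51 and Kcp at -1.49 ran in the opposite direction.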

How the results depend on the processing

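All 32 genes named for their size of difference, for the difference of strain differences or as Dmrt1 itself stayed called between knockouts in each of the leave-one-out fits. Apart from Dmrt1 they were chosen for large or called differences on these same arrays, so this says little about stability. No gene called with every array reversed among the named or listed genes recomputed. Pde5a, whose representative probe set was not called, ranged from -0.042 to 0.22. Leaving out 1 array gave 2846 to 3997 genes and 5047 to 7393 probe sets called between knockouts, 880 to 1550 genes and 1683 to 2759 probe sets between wild types, 23 to 96 genes and 34 to 141 probe sets for the difference of strain differences, 120 to 149 listed genes against 146 with every array, 13 to 17 neighbours of Dmrt1 and a same-sign share of 75.6% to 78.7%. Of 197 named or listed genes recomputed, all of them called except Pde5a, 48 lost the call without at least 1 knockout array. With a floor of 2-fold the counts were 1321 genes and 2806 probe sets between knockouts, 712 and 1499 between wild types, 88 listed genes and 8 neighbours, and the same-sign share was 87.2%. Array weights, which gave B6 knockout replicate 3 a weight of 0.172, called 11214 probe sets between knockouts, 3430 genes and 6430 probe sets between wild types, and 842 genes and 1358 probe sets for the difference, with a share of 74.9%. The difference was called for 123 genes and 177 probe sets with values floored at log2 4, 92 and 125 with log2(value + 16), 167 genes with 1 probe set per gene, and 87 and 124 without the 2 knockout arrays of highest Actb ratio. The share was 79.4% at log2 of at least 6, 78.3% with median centring, 79.3% with only the groups compared and 80.2% without those 2 arrays. Causes were not tested, except that fewer arrays or probe sets enter where some are left out.

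With the replicate number as a block 3556 genes were called between knockouts, of which 3522 were among the 4062, and 52 for the difference. The numbers do not pair the arrays. With 3 arrays a group, changes under 2-fold were often missed in the simulated data, and values near an intensity of 16 are close to background.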
